A study of Homo sapiens with 6 samples.

Results

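Kinesins and myosins are the ATP-driven motors that walk on microtubules and on actin filaments. The genes described here are those whose listed name starts with KIF, KIFC, MYO or MYH in the pattern of the motor gene families. Of 82 reference genes with such a name, 58 had at least 1 row in the deposited exon annotation, 35 kinesins and 23 myosins, among 13721 listed gene names in all. They hold 3380 of 382567 exon rows and 135 isoforms, of which 97 were distinct. A single distinct isoform was listed for 32 of the 58.

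The annotation was made for cells of the established glioma line U-87 MG, and the labels name no genetic change in them. In 3 libraries the cells had been kept for 72 h with EPZ015666 at 10 uM, a compound that blocks PRMT5, an enzyme that methylates arginines. In another 3 they had been kept for 72 h with DMSO as vehicle, at 10 ul in 10 ml of medium. One file of exon positions on the hg19 build serves both groups together. With 0 columns that belong to a library, it gives neither expression nor depth nor replicate spread. EPZ015666 was therefore not compared with DMSO, and every result below is a description of listed gene structures without a test. Of the markers of the line, VIM, CD44, S100B and NES had rows and GFAP had none. The share of reference introns listed, a measure described below, was 88.9% for VIM, 66.7% for NES, 41.2% for CD44 and 0% for S100B. A row says that a gene was listed, not how strongly it was expressed.

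A kinesin or myosin has a motor domain that binds its filament and hydrolyses ATP, a neck or stalk that sets stepping and pairing, and a tail that holds cargo or assembles filaments. Mitotic kinesins build the spindle, move chromosomes and close the midbody. Transport kinesins carry vesicles, mitochondria and other cargo. Muscle myosins form the thick filaments of sarcomeres or contract smooth muscle, non-muscle myosins II contract the cell cortex and the cleavage furrow, and unconventional myosins link membranes and cargo to actin. Many motors change their cargo or their kinetics through cassette exons, which are exons that some transcripts carry and others skip, and through alternative ends of the transcript.

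The sequences below are cassette exons of the reference annotation for which the deposited structure showed one form. They are shown because they are the short coding inserts on which the splice forms of these motors differ. Each is the transcript strand, 5' to 3', from GENCODE v29 (GRCh38); capitals mark the cassette exon, and the 15 lower-case bases on each side belong to the neighbouring exons. Those first in line were skipped in the listed isoforms.
MYH10 exon of 30 bases, skipped: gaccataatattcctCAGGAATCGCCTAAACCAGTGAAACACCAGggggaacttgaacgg
MYH10 exon of 63 bases, skipped: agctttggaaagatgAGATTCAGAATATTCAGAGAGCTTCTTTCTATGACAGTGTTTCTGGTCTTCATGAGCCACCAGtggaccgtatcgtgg
MYO5A exon of 9 bases, skipped: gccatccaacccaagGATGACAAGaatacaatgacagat
MYO6 exon of 27 bases, skipped: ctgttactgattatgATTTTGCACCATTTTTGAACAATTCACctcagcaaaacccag
KIF1B exon of 18 bases, skipped: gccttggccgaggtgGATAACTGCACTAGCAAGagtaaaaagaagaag
KIF1B exon of 27 bases, skipped: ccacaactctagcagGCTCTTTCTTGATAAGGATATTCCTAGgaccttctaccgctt
KIF21A exon of 12 bases, skipped: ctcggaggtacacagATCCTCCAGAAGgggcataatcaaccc
KIF3A exon of 9 bases, skipped: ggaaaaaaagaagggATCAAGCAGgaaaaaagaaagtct
KIF1B exon of 42 bases, included: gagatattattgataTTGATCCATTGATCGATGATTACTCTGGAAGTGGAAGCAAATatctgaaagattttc
KIF21A exon of 21 bases, included: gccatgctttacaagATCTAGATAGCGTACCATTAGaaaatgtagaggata
MYO5A exon of 81 bases, included: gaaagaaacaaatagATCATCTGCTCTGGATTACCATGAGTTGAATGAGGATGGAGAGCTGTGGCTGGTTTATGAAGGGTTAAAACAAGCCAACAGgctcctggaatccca
MYO5A exon of 75 bases, included: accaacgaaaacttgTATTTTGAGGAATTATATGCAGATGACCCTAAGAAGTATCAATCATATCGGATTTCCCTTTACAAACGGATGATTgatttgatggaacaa

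On GRCh38 the MYH10 exons lie at chr17:8576643-8576672 and chr17:8530623-8530685, minus strand. Those of MYO5A lie at chr15:52348818-52348826, chr15:52343117-52343197 and chr15:52337810-52337884, minus strand, in the order 9, 81 and 75 bases. The MYO6 exon is at chr6:75911672-75911698, plus strand. KIF1B has its exons of 18, 42 and 27 bases at chr1:10273014-10273031, chr1:10279097-10279138 and chr1:10355370-10355396, plus strand. KIF21A has those of 21 and 12 bases at chr12:39330242-39330262 and chr12:39315229-39315240, and KIF3A its exon at chr5:132706451-132706459, all on the minus strand. Each of the 12 is wholly coding and has a length that is a multiple of 3, so either form keeps the reading frame.

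The first question was which motors had a structure at all. Listed names covered 70.7% of the motor genes (58 of 82, 95% Wilson interval 60.1 to 79.5, counting error only), against 61.4% of 19936 protein-coding reference names. The share was 92.3% for mitotic kinesins (12 of 13, interval 66.7 to 98.6) and 94.1% for transport kinesins (16 of 17). It was 25.0% for muscle myosins (3 of 12, 8.89 to 53.2), the lowest of the role groups. Unconventional myosins had 18 of 25, other kinesins 7 of 12 and non-muscle myosins II 2 of 3.

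The mitotic motor without a row was KIF4B, which has 0 introns in the reference, and the transport motor without one was KIF1A, a neuronal carrier of synaptic vesicle precursors. Among the other kinesins KIF2B, KIF12, KIF19, KIF25 and KIF26A had no row. The skeletal muscle myosins MYH1, MYH2, MYH4, MYH8 and MYH13, the cardiac myosins MYH6 and MYH7, the smooth muscle myosin MYH11 and the pseudogene MYH16 had none either. Of 11 muscle markers, 3 had rows (ACTC1, TNNT1 and TTN), with 33.3%, 76.9% and 6.08% of their reference introns listed. MYH14, the heavy chain of non-muscle myosin IIC, had no row, while MYH9 and MYH10, those of IIA and IIB, were both listed. Unconventional myosins without a row were MYO1A, MYO1G, MYO1H, MYO3A, MYO7A, MYO18A and MYO18B.

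None of the 24 names had an older symbol in the file. MYO18A, a myosin with a PDZ domain found on the Golgi, is a special case. TIAF1, a gene whose reference locus lies within MYO18A, was listed at chr17:27400540-27417633 (hg19), and 5 of its 7 listed introns had the lengths of MYO18A reference introns 36 to 40 of 41.

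**Figure D1:**
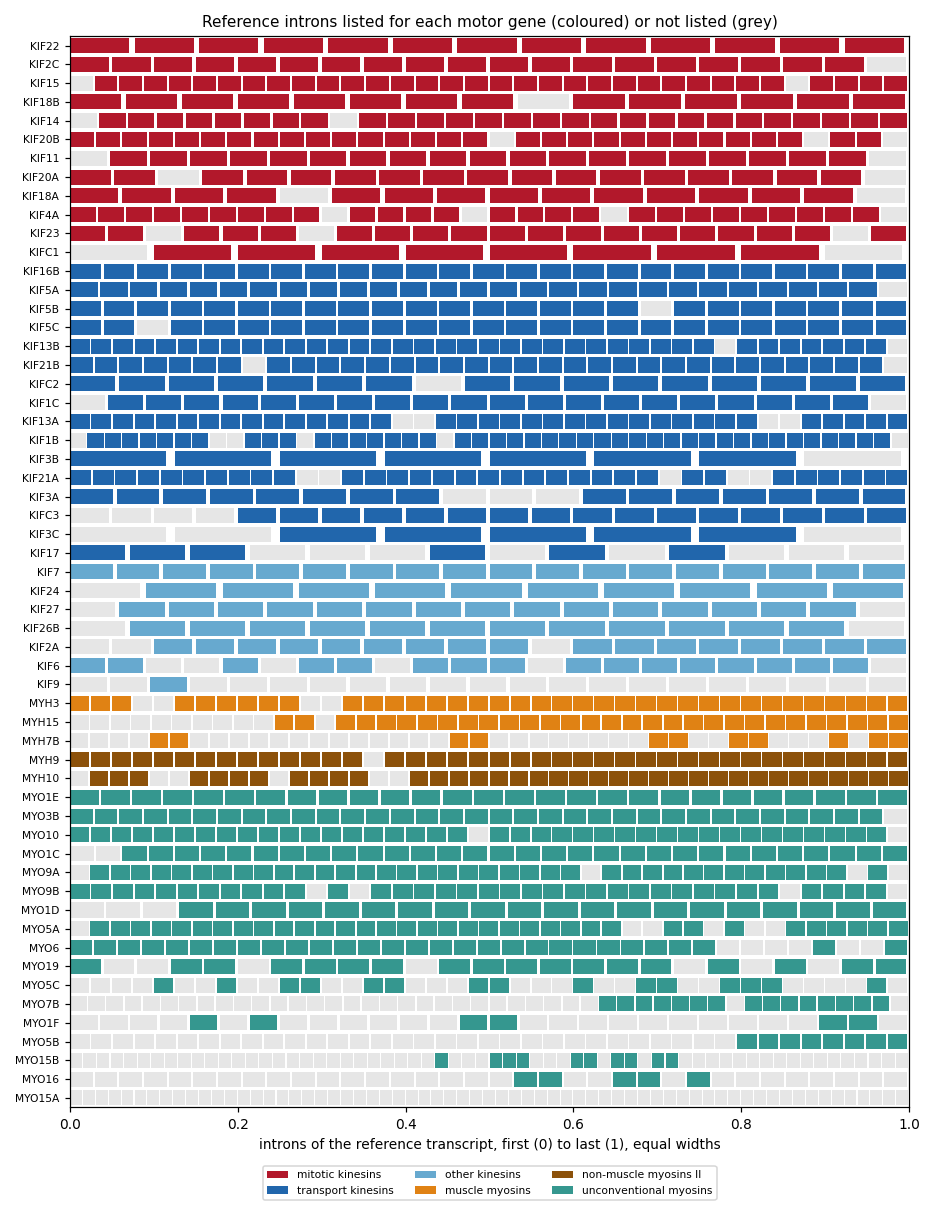
Each line is 1 of 57 listed motor genes and each block 1 intron of its reference transcript in order (x axis, scaled from 0 to 1 with equal widths). Coloured blocks were listed and grey ones were not; mitotic kinesins and most transport kinesins are nearly filled, apart from KIF17 with 6 of 14 and KIF3C with 5 of 8, whereas MYO15A has no coloured block and MYO5B has its last 8 introns only.

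Completeness was measured as the share of introns of a gene's reference transcript, the protein-coding one with most introns, that the longest listed isoform matched in order and in exact length. Lengths were used because the file and the reference are on different builds. For the 58 genes together it was 73.4% (1231 of 1677 introns), against 77.9% over all listed genes with a reference. The median gene stood at 87.9%, against 81.8% for all listed genes. Without the first and last reference introns the medians were 92.6% for motors and 93.5% for all listed genes. Among genes with 14 or more listed introns the pooled share was 86.3% for motors, against 88.0% for all. Listed introns also make up the share, so that cut removes incomplete genes. Genes under 50% fell from 10 to 2 among motors and from 2427 to 41 among all. Under 90% of introns were listed in 33 of the 58 motors, against 65.7% of matched genes.

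Mitotic kinesins had 90.8% of their introns listed (237 of 261, interval 86.7 to 93.7) and transport kinesins 89.2% (363 of 407, 85.8 to 91.8). These intervals overlap. Non-muscle myosins II had 91.5% (75 of 82) and other kinesins 72.4% (89 of 123). Muscle myosins had 62.6% (77 of 123, 53.8 to 70.6) and unconventional myosins 57.3% (390 of 681, 53.5 to 60.9). The muscle value rested on MYH7B, and without that gene it was 81.5%. Introns of 1 gene are not independent, so the intervals are narrower than the differences among genes would give.

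**Figure D2:**
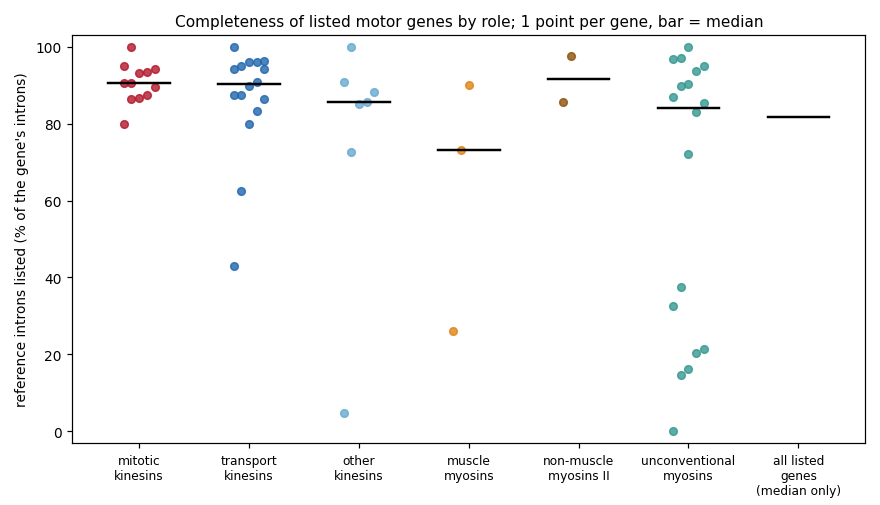
Points are the 58 motor genes by role (x axis) and the share of their reference introns that was listed, in percent (y axis); bars are medians over genes. Mitotic kinesins lie between 80.0 and 100, while unconventional myosins spread from 0 to 100 with a median of 84.1, against a median of 81.8 for all listed genes.

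Within the mitotic group the spread was small. KIF22, a chromosome-arm kinesin, had 13 of 13 introns listed. KIF2C, the microtubule depolymerase MCAK, had 19 of 20 and KIF11, the bipolar spindle motor Eg5, 19 of 21. KIF14, a midbody kinesin, had 27 of 29. KIF20A (MKLP2) had 17 of 19, KIF4A, a chromokinesin, 26 of 30, and KIF23 (MKLP1), the centralspindlin motor, 19 of 22. KIF18A, which shortens kinetochore microtubules, had 14 of 16, and the lowest was KIFC1, a minus-end motor that clusters centrosomes, with 8 of 10. The lack was often at the ends of the gene. Without the first and the last reference intron the mitotic share was 94.5%. The median mitotic gene went from 90.6% to 95.2%. Over all listed genes the median went from 81.8% to 93.5%, so the lack at the ends is not particular to mitotic kinesins. The 8 inserted exons of the mitotic kinesins, described below, each split a reference intron that counts as unlisted here.

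Among transport kinesins KIF16B, an endosome motor, had 25 of 25 introns. The conventional kinesin heavy chains were close to complete, with 27 of 28 introns for KIF5A, 24 of 25 for KIF5B and 24 of 25 for KIF5C. KIF1C had 20 of 22, KIF13A 35 of 39, KIF1B 42 of 48 and KIF21A 32 of 37. In the kinesin-2 family, which drives intraflagellar transport, KIF3B had 7 of 8, KIF3A 15 of 18 and KIF3C 5 of 8. KIFC3 had 16 of 20. KIF17, a ciliary and dendritic motor, was the exception with 6 of 14.

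Among the other kinesins KIF7, a regulator of Hedgehog signalling at the cilium tip, had 18 of 18 introns. KIF27, its paralog, had 15 of 17. The depolymerase KIF2A had 17 of 20, KIF26B 12 of 14 and KIF6 16 of 22. KIF9 had 1 of 21. Its 4 listed introns lie at chr3:47316719-47324337 (hg19), and 3 of them matched all 3 introns of a short protein-coding transcript of the gene.

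Of the muscle myosins, MYH3, the embryonic skeletal heavy chain, had 36 of 40 introns and MYH15 had 30 of 41. All of the first 10 reference introns of MYH15 were unlisted, as the map of introns shows. MYH7B had 11 of 42. Non-muscle MYH9 had 39 of 40 and MYH10 36 of 42.

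Unconventional myosins fell apart into genes listed nearly whole and genes listed in pieces. MYO1E, a class I myosin of the cell cortex, had 27 of 27 introns, MYO3B 33 of 34, MYO10, the filopodial motor, 38 of 40, and MYO1C 30 of 32. MYO9A had 37 of 41 and MYO9B 35 of 39, both myosins with a RhoGAP domain. MYO1D had 20 of 23, MYO5A, the melanosome carrier, 35 of 41, MYO6, which moves towards the minus end, 29 of 35, and the mitochondrial motor MYO19 18 of 25.

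Another 7 of the 18 unconventional myosins were under 50%, together with KIF17, KIF9 and MYH7B, 10 motor genes in all. The background was 19.9% of matched genes under 50%. Against the best-matching reference transcript of each gene, chosen after seeing the data, 7 motor genes were under 50%; KIF9, MYO5B and MYO7B were not. MYO15A, a motor of hair-cell stereocilia with 65 reference introns, was a single exon of 651 bases (chr17:18061661-18062311, hg19). MYO5B, an endosome recycling motor, was listed at introns 32 to 39 of 39, at the 3' end of the gene, and a reference transcript with just these 8 introns exists. MYO7B was listed with 15 introns between introns 30 and 45 of 46, and these are 15 of the 22 introns of a shorter reference transcript. MYO15B had 10 of 62, MYO16 5 of 34, MYO1F 6 of 28 and MYO5C 15 of 40.

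Missing introns were of different kinds. Where the reference transcript carries a cassette exon that the listed isoform skips, the introns on both sides of it count as unlisted. Against their best-matching transcripts MYO6 had 30 of 30 introns and KIF3A 16 of 16. An inserted exon, described below, likewise leaves the reference intron that it splits unlisted. In some genes the exon row ran through missing introns. A joined exon is an internal exon whose length equals that of neighbouring reference exons added to the introns that part them. There were 34 joined exons in 14 motor genes, 24.6% of those with introns, against 10.3% of all matched genes with 2 or more introns and 13.9% of those with 14 or more. Among motors with 14 or more listed introns they were found in 9 of 45 (interval 10.9% to 33.8%, which holds the 13.9%). A joined exon lowers the number of listed introns, so that cut can drop genes through their joined exons. It kept 17 of the 34. All 34 joined exons together covered 90 reference introns.

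MYH7B held the longest runs. Its 4 joined exons covered 27 introns, 13 of them in the exon of 9278 bases at chr20:33568836-33578113 and 9 in that of 6637 bases at chr20:33578807-33585443 (hg19, plus strand). Together with the 11 introns listed as such, 38 of 42 were accounted for. MYO1F, a class I myosin of leukocytes, had 16 introns inside 3 joined exons, 10 of them in an exon of 16513 bases at chr19:8590363-8606875. MYO5C had 18 introns inside 7 joined exons. MYO15B had 9 inside 5, MYO16 3 inside 2 and KIF17 5 inside 3.

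Joined exons were found in 2 of 3 muscle myosins (MYH3 with 2 and MYH7B with 4) and in 7 of 17 unconventional myosins with introns (MYO1F, MYO5A, MYO5C, MYO7B, MYO9B, MYO15B and MYO16). Mitotic kinesins had 1 of 12 (KIF14, 1446 bases) and transport kinesins 2 of 16 (KIF17 and KIF5B). KIF6 among the other kinesins and MYH10 among the non-muscle myosins II had them too. Whether any of these exons stands for an intron left in the RNA was not tested, since no row marks an intron as detained.

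An intron was called spanned where 1 exon of another isoform runs from the start of the exon before it exactly to the end of the exon after it. In KIF21A the intron of 483 bases at chr12:39724065-39724547 (hg19) is spliced in one isoform and covered by the final exon of another. By that definition 1 of 57 motor genes had a spanned intron, against 4.18% of all genes with introns. It leaves out MYH9, whose early final exon described below covers 3 whole introns and ends inside a further one. Where covering 50% of an intron was enough, 5 motor genes had one.

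The last intron deserves a measurement of its own, since 29 of the 58 motors lacked it. In 22 of 57 motor genes the last row of an isoform repeated the row before it, against 23.5% of matched genes. The last reference intron was listed in 1 of these 22 (KIF7) and in 28 of the other 35. Over all matched genes it was listed in 8.65% of 2658 genes with a repeated last row and in 76.0% of 8644 without. Repeated rows occurred in 15 of 25 motor genes on the plus strand and 7 of 32 on the minus strand, against 32.9% of plus-strand and 13.9% of minus-strand genes overall. KIF11, KIF4A, KIF2C, KIF1B, KIF5A and MYO10 are among the 22. Whether the repetition comes from how the file was written was not tested.

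Cassette exons were sought first between isoforms of the file. No motor gene had an exon that one listed isoform carries and another skips, and none of the 12462 genes with introns had one (0% of genes). An isoform that starts later than another was found in 0 motor genes, against 0.233% of genes, and more than 1 first exon in 0, against 0.281%. As listed, isoforms of a motor gene shared their exons from the first onwards and differed at the 3' end. The deposited annotation is named one of DI and consensus coding isoforms, and the name does not spell out DI. Because no gene in it had a cassette exon between isoforms, this lack is a trait of the whole annotation and not of motor genes.

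The one form listed at each cassette exon can still be set against the reference. It is an entry of the annotation and does not tell how often the cells used either form. The reference holds 74 cassette exons in 33 of the listed motor genes, 62 of them with a length that is a multiple of 3. Such lengths were not counted over all listed genes. In the file 30 were included, 18 were skipped, 0 were present in both forms and 26 could not be told, because neither form matched in its intron lengths. Of the 48 told, 37.5% were skipped, against 25.6% of 8103 over all listed genes.

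Many of the skipped exons were short. Of 12 told exons of 30 bases or less, 10 were skipped, 83.3%, against 59.5% of 447 such exons over all listed genes. The 10 are in 7 genes, and all have lengths that are multiples of 3 and are wholly coding. Neither property was counted over all listed genes. Exons of MYH10 (30 and 27 bases) and KIF21A (15 and 12 bases) are pairs that share an edge; with each pair counted once, 8 of 10 short exons were skipped, and they were 8 of the 16 skipped at any length. Exons of 31 to 99 bases were skipped in 4 of 22 cases in motor genes, against 25.7% over all genes, and longer ones in 4 of 14, against 918 of 4179. The median skipped exon had 28.5 bases in motor genes, against 93.0 over all listed genes, and the median included exon 78.0, against 105.

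**Figure D3:**
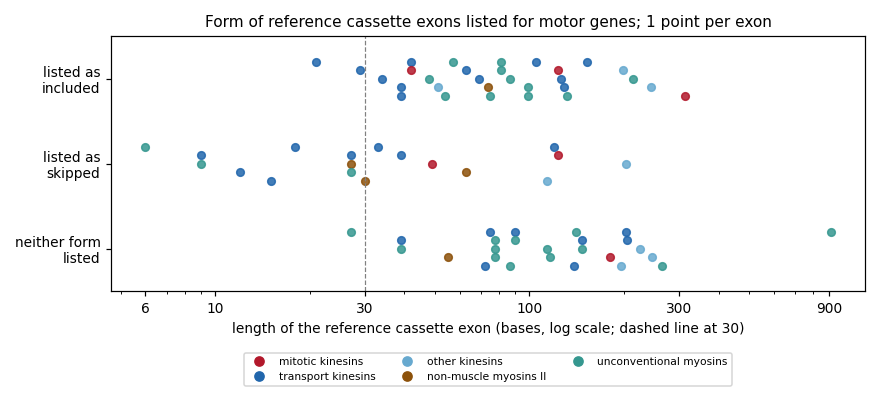
Each point is 1 of the 74 cassette exons that the reference holds for listed motor genes, by its length in bases (x axis, log scale) and the form listed (y axis), coloured by role. Left of the dashed line at 30 bases 10 points are skipped, 2 are included and 1 is neither.

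Non-muscle myosin MYH10 was listed without its best-known inserts. The exons of 30 or 27 and of 63 bases, printed above, encode the B1 insert near the ATP-binding loop and the B2 insert near the actin-binding loop, which are known from neurons. In the file the introns at chr17:8473131-8480553 (7423 bases) and chr17:8424604-8438704 (14101 bases) passed over them (hg19, minus strand). A 74-base exon of the gene that is not wholly coding was included.

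MYO5A was listed in a mixed form. The 9-base exon, known as exon B, was skipped by the intron at chr15:52638659-52643450, while the 81-base exon D and the 75-base exon F were included at chr15:52635314-52635394 and chr15:52630007-52630081 (hg19). Exon F is the one needed to bind melanophilin, the adaptor to melanosomes, and forms without exon B and with exons D and F are those described in melanocytes. Both genes of that adaptor link were listed too, MLPH with 86.7% of its reference introns and RAB27A with 42.9%. MYO6 was listed without its 27-base exon, passed over at chr6:76618345-76623779, and a further pair of its exons, of 27 and 39 bases, could not be told.

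Among transport kinesins 12 cassette exons were included and 8 skipped. KIF1B, which has short and long forms sharing the motor domain, skipped its exons of 18 and 27 bases and included that of 42 bases at chr1:10339155-10339196 (hg19). KIF21A, a motor mutated in a congenital eye movement disorder, skipped exons of 39, 15 and 12 bases and included those of 69, 21 and 129 bases. KIF3A skipped its 9-base exon and included that of 126 bases. KIF13A skipped an exon of 120 bases and included those of 39 and 105 bases, and KIF16B skipped one of 33 bases and included one of 153 bases. KIF13B, KIF1C, KIF21B and KIFC3 each included 1.

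Mitotic kinesins have few such exons, 6 in 4 genes, of which 3 were included and 2 skipped. KIF23 included the 312-base exon that distinguishes its longer form CHO1, which binds actin, from MKLP1, at chr15:69733107-69733418 (hg19), and also one of 42 bases. KIF2C included an exon of 123 bases. KIFC1 skipped one of 123 bases and KIF22 one of 49 bases. Muscle myosins had 0 reference cassette exons in listed genes.

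Unconventional myosins included 11 and skipped 3. MYO9A included 4, of 54, 57, 132 and 213 bases. MYO10, MYO1E, MYO3B and MYO9B each included 1. Other kinesins included 3 (in KIF6, KIF9 and KIF27) and skipped 2, of 114 and 203 bases, both in KIF2A.

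The file also holds exons that the reference does not. An inserted exon is an internal exon of a length found in no reference exon of the gene, whose length and flanking introns sum exactly to 1 reference intron. Motor genes had 15 in 12 genes, 21.1%, against 13.0% of all matched genes with 2 or more introns. Motors with 14 or more listed introns reached 24.4%, against 22.6% of all such genes, so the share was close to that of genes of like listed intron number.

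Mitotic kinesins held 8 of the 15, in 6 of 12 genes (interval 25.4% to 74.6%). KIF11 had one of 75 bases at chr10:94365264-94365338 within reference intron 1, and KIF15, a motor that backs up KIF11, one of 121 bases in intron 1. KIF18A had 129 bases in intron 5 and KIF23 had 63 bases in intron 3. KIF20B had 54 bases in intron 17 and 1394 bases in intron 29, and KIF4A 162 bases in intron 15 and 146 bases in intron 20. Transport kinesins had 1 in 16 genes (KIF21B, 164 bases; 6.25%, interval 1.11 to 28.3).

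Among the other kinesins KIF24 had an inserted exon of 124 bases and KIF26B one of 115. Of the unconventional myosins MYO1D had one of 98 bases, MYO5A one of 120 and MYO9A exons of 45 and 75. Muscle and non-muscle myosins II had 0. The length was a multiple of 3 in 8 of the 15 (53.3%), against 36.9% of 1606 inserted exons over all genes. Their sequences are not printed, because the reference used here has no exon there.

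**Figure D4:**
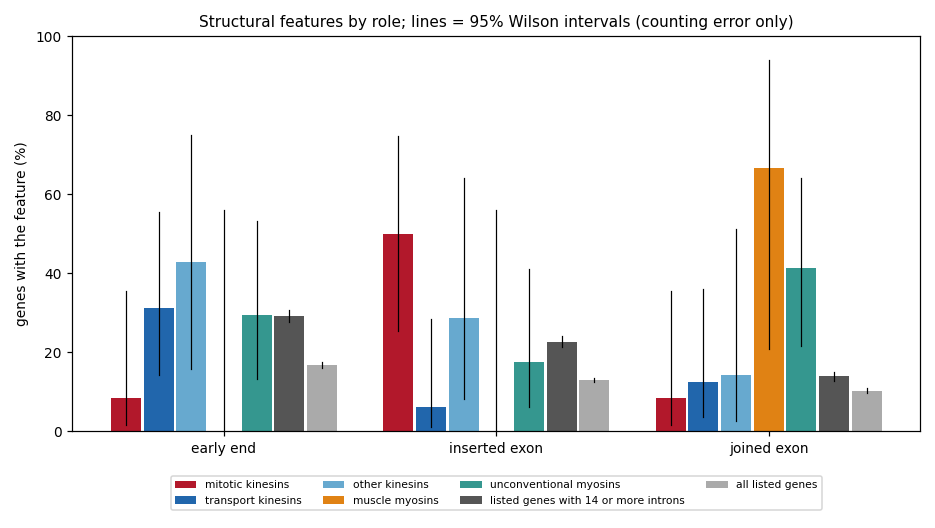
Bars are the percent of genes (y axis) with an early end, an inserted exon or a joined exon, by role of the motor, then in all listed genes with 14 or more introns and in all listed genes; lines are 95% Wilson intervals, and the 2 non-muscle myosins II are not drawn. Inserted exons were found in 6 of 12 mitotic and 1 of 16 transport kinesins, early ends in 1 of 12 and 5 of 16, and joined exons stand at 66.7% in muscle myosins, of which 3 are listed; most intervals overlap.

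An early end is a final exon whose start lies upstream of the start of the most distant final exon listed for the gene. There were 19 in 15 motor genes, 26.3%, against 16.8% of all genes with introns. Early ends are commoner in genes with many listed introns, and with 14 or more listed introns the shares were 33.3% for motors and 29.2% for all genes. All 19 start at the acceptor of an exon that is internal in a longer isoform, and 0 are separate final exons within an intron. No share of either kind over all listed genes is given here, so this is not read as a trait of motor genes. In 8 of the 15 genes the last reference intron was not listed, so there the early end is early against the listed end, not the reference end.

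Mitotic kinesins had an early end in 1 of 12 genes (8.33%, interval 1.49 to 35.4) and transport kinesins in 5 of 16 (31.2%, interval 14.2 to 55.6). The intervals overlap. Muscle myosins had 0 of 3, non-muscle myosins II 1 of 2, other kinesins 3 of 7 and unconventional myosins 5 of 17. The early final exon lay after 2.44% to 97.4% of the introns of the longest isoform, with a median of 45.5%.

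For 11 of the 19 a reference transcript ends after an intron of the same length with a final exon within 1 base of that listed, and in 9 of these exons a protein-coding transcript ends. All 9 on the minus strand were 1 base shorter in the file, and both on the plus strand were equal. The other 8 had no such transcript in the reference. For these matches, too, no share over all listed genes is given.

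**Figure D5:**
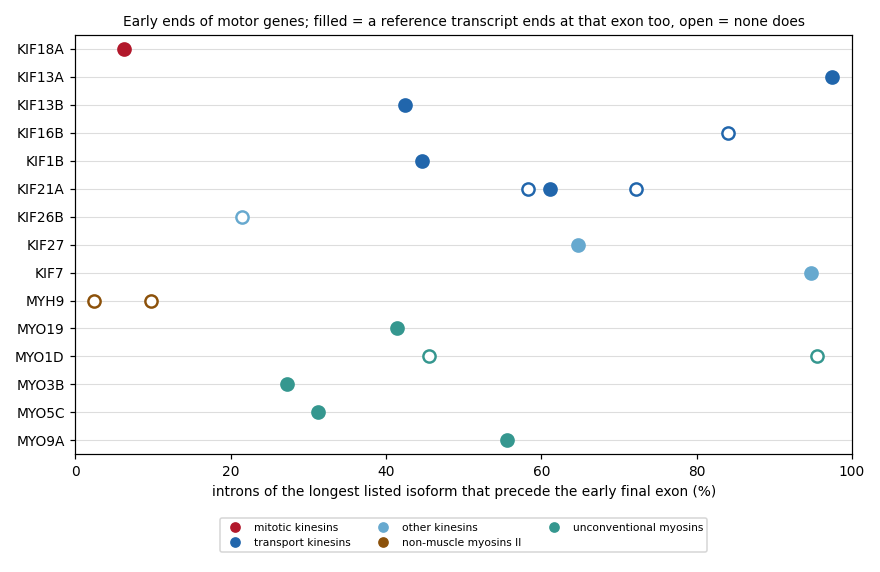
Each point is 1 of the 19 early ends of motor genes, by gene (y axis) and by the share of introns of the longest listed isoform that precede it, in percent (x axis). Filled points have a reference transcript ending at the same exon and open points have none; MYH9 has both of its points below 10 percent, and KIF13A, KIF7 and 1 point of MYO1D lie above 90.

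The mitotic early end was that of KIF18A. It follows 1 of 16 introns, in a final exon of 661 bases at chr11:28118880-28119540 (hg19, minus strand), and extends the internal exon by 290 bases into an intron of 2822 bases. A reference transcript, not a protein-coding one, ends there with 662 bases.

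The end of KIF1B follows 21 of 47 introns. Its final exon of 5435 bases at chr1:10363221-10368655 has the same length as the final exon of a protein-coding reference transcript. In the file that exon is final in 2 isoforms and also internal in the longest one, whereas the reference has it as a final exon only. KIF13A ends after 37 of 38 introns with 1253 bases, 1 base short of a protein-coding reference end. KIF13B ends after 17 of 40 introns with 682 bases, 1 base short of the end of a transcript that the reference marks for nonsense-mediated decay; a protein-coding transcript ends in the same exon, a few bases earlier. KIF16B ends after 21 of 25 introns with 3793 bases, where the reference has no end.

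KIF21A had 3 early ends, after 21, 22 and 26 of 36 introns. The end after 22 introns, of 210 bases, lies 1 base from a protein-coding reference end. That after 21 introns, of 859 bases, shares its last base with it and runs through the spanned intron of 483 bases. The one after 26 introns has a final exon of 31 bases, which is shorter than the internal exon of 108 bases that starts at the same place.

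Among the other kinesins KIF7 ends after 18 of 19 introns (809 bases) and KIF27 after 11 of 17 (376 bases), both 1 base from a protein-coding reference end. KIF26B ends after 3 of 14 introns with 4884 bases, 4350 of them inside an intron of 52211 bases, without a reference end.

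MYH9, the non-muscle heavy chain IIA, had early ends after 1 and 4 of 41 introns. Both stop at the same base, chr22:36721079 (hg19), 1534 bases into an intron of 4046 bases. The final exon of the shorter isoform is 24222 bases long and crosses 3 whole introns, and that of the longer one is 1628 bases. The reference has no end at either exon. Whether the isoform of 24222 bases is a transcript or a merged region was not tested.

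Unconventional myosins ended early at MYO3B after 9 of 33 introns (751 bases, equal to the reference), MYO5C after 5 of 16 (524 bases), MYO19 after 12 of 29 (419 bases) and MYO9A after 25 of 45 (2142 bases). The last 3 lie 1 base from a reference end. MYO1D had a pair without a reference end. One follows 10 of 22 introns with 592 bases, and the other follows 21 of 22 with a final exon of 95287 bases at chr17:30836973-30932259, covering 86.3% of an intron of 110171 bases.

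Several ends within one final exon were listed for 11 motor genes, 19.3%, against 23.7% of all genes with introns. MYH10 had 5, with final exons from 1736 to 7789 bases, a spread of 6053 bases. KIFC3 had 4, over 1489 bases. MYO5B (3447 bases), KIF5C (3249), MYO6 (2924) and MYH15 (2084) each had a pair this far apart. In MYH3 the 3 ends lie within 6 bases. KIF2A and KIF3A had final exons with acceptors 6 and 706 bases apart, which were not counted as early ends because the exons overlap.

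The partners of the motors were read in the same way. Of kinesin light chains and adaptors, 10 of 12 had rows, with 168 of 193 reference introns; KLC1 and KLC3, light chains that link cargo to kinesin-1, had none. SPAG9 had 3 early ends and TRAK1, the adaptor to mitochondria, 2. All 15 genes of the spindle and midbody list were listed, with 210 of 240 introns, and 1 of them (NUMA1) had early ends. CENPE, a kinesin of the kinetochore that the naming pattern leaves out, was listed with 46 introns and 86.5% of its reference introns. Of myosin light chains and regulators, 21 of 27 had rows, with 219 of 276 introns. The muscle light chains MYL2, MYL3, MYL4 and MYL7 were among the 6 without rows, as was the muscle myosin chaperone UNC45B, while its general paralog UNC45A was listed. Other muscle genes of this list did have rows: MYL1 with 0% of its reference introns, MYLK2 with 91.7% and MYLK3 with 33.3%.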

How the data were processed

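Poly(A)-selected RNA of 6 U-87 MG libraries was sequenced, per the labels. Per the submitters' processing notes, RSEM, DESeq 1.10.1, bedtools 2.20.1, Bowtie 1.0.1 and STAR 2.4.1d were used with the build hg19; the step of each is not given. The deposited file used here lists exon start and end positions, which are the only numeric values (unit: other) and carry no depth. A new isoform was begun at a new parent name or at a step back along the strand; of consecutive exons that overlap, the later was kept. The 76 rows with an end before the start were dropped. Genes were matched by name to GENCODE v29 (GRCh38), and structures by exon and intron length in order, never by position. An exon whose length happens to equal another reference exon is missed by the joined and inserted definitions. Role lists come from textbook knowledge. The members, lists and measures were chosen with earlier results of these data known. Genes were named if they had an early end, a joined exon or under 90% of introns, if they had the most introns or no row, or if they belonged to a fixed set; those with cassette, inserted or repeated exons were named after their values were seen. One motor gene enters the counts but is not reported here by name. The measures of completeness, early ends, late starts, joined, inserted and spanned structures, and cassette exons between isoforms were tested on simulated data. The reading of cassette forms against the reference, the repeated last rows and the best-matching transcript were not. Python 3.11.15, numpy 2.4.6, scipy 1.17.1 and matplotlib 3.10.9 were used. Alternatives covered the reference transcript, length tolerance, overlapping exons, distances and role lists.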

Additional observations from a re-analysis of the deposited data

How the results depend on the processing

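Of 30 alternative values, 24 stayed within the set limits and 6 moved. Completeness of the motor genes was 66.7% with the introns of all protein-coding transcripts of a gene, and 83.1% with the best-matching transcript of each gene, an alternative chosen after seeing the data. For transport kinesins it was 80.1% with myosins V and VI added. For mitotic kinesins it was 94.5% without the first and last reference introns, and for muscle myosins 81.5% without MYH7B; both were chosen after seeing the data. Motor genes with a spanned intron numbered 5 where covering 50% of an intron was enough. The planned comparison of expression in EPZ015666 and DMSO cells was not run, because no counts per library were analysed here. No paired analysis was possible because positions shared by all libraries are the only values. For the same reason no replicate could be left out, and depth is unknown.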
